A study of Mus musculus with 29 samples.

Results

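Mitosis and chromosome segregation genes were followed in mouse bone marrow-derived macrophages across 6 cytokine conditions, with the value of each array shown. A list of 40 genes was matched to the probe sets that the array annotation assigns to exactly 1 of them. 39 of the 40 genes had such a probe set, with 73 probe sets in all, out of 12394 genes on the array. Ccnb1, which encodes cyclin B1, had none of its own and is named only. All 39 genes passed the filter on low values (at least 3 of the 29 arrays above log2 6.99), as did 7154 genes of the array as a whole. Where a gene had several probe sets, that of the highest overall mean was used.

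The cells came from the marrow of 8-week-old C57BL/6 mice with the wild-type genotype and were grown in Teflon bags for 7 days with 10 ng/ml CSF-1, the growth factor on which macrophages depend. CSF-1 at 10 ng/ml was also present in every group during the following 24 h. The unstimulated group (8 arrays) received nothing else, and the IL-4 (5 arrays), IL-6 (5 arrays) and IL-10 (3 arrays) groups received 10 ng/ml of that cytokine. The IL-4+IL-6 (5 arrays) and IL-4+IL-10 (3 arrays) groups received 10 ng/ml of each. The labels number the replicates but do not say which came from separate animals or cultures, so p-values measure only the spread between these arrays, whose number limits the precision. RNA was taken from whole cultures, in which fewer dividing cells and less RNA of these genes per cell cannot be told apart.

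Entry into mitosis is driven by the kinase CDK1 with cyclin A or cyclin B, and by the kinases PLK1 and Aurora A. The kinetochore joins chromosomes to spindle microtubules, the spindle checkpoint holds the anaphase-promoting complex back until all are attached, and the central spindle then directs cytokinesis. Most of these genes are transcribed in a wave late in the cell cycle, repressed in resting cells by the DREAM complex and switched on in cycling cells with the help of B-Myb and FOXM1. Macrophages grown with CSF-1 keep dividing in culture, since CSF-1 is a mitogen for them.

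Promoters of this class of gene often carry the same short motifs, which were looked up first because the genes moved together in the values below. The cell cycle genes homology region (CHR) was searched as TTTGAA or TTCGAA and the CCAAT box as CCAAT, on both strands. The search covered the RefSeq promoter windows of build GRCm38.p6 (250 bases before to 50 after a gene's start), and 33 of the 40 genes had a window. A CHR was present in 24 of these 33 genes (72.7%), against 963 of the 5917 tested genes with a window (16.3%) and 21.7% of all 27025 genes with a window. The share with both a CHR and a CCAAT box was 63.6% (21 of 33), against 6.66% of the tested genes. A CHR that began within 50 bases of the start site was found in 22 of the 33 genes (66.7%) and in 253 of the 5917 (4.28%). Mitosis genes outside the list held these motifs often too. Of 92 with a window, 49 (53.3%) held a CHR and 35 (38.0%) held both motifs. In 37 of the 92 (40.2%) a CHR began within 50 bases of the start site. Among 31 genes of DNA replication and S phase, 6 (19.4%) held a CHR. These shares are counts of letters in a window and show no binding.

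6 windows are shown because their genes carry the results: Ccnb2, Kif23 and Prc1 hold both motifs, and Cks2 and Cenpe fell as far without a CHR. Pttg1, with neither motif in its window, is the gene for which the combination of IL-4 with IL-6 did not lie below the sum of the single cytokines. The last 180 bases of each window (130 before to 50 after the start) are printed on the gene's own strand, with CHR and CCAAT matches in capitals (ATTGG and TTCAAA are matches read on the other strand). They lie at Ccnb2 (chr9:70421505-70421684, minus strand), Kif23 (chr9:61946750-61946929, minus strand), Prc1 (chr7:80294321-80294500, plus strand), Cks2 (chr13:51645102-51645281, plus strand), Cenpe (chr3:135212433-135212612, plus strand) and Pttg1 (chr11:43425932-43426111, minus strand).
Ccnb2: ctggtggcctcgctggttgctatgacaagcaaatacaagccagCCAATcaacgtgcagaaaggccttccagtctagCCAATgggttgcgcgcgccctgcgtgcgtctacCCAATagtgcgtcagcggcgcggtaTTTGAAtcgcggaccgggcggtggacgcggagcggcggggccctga
Kif23: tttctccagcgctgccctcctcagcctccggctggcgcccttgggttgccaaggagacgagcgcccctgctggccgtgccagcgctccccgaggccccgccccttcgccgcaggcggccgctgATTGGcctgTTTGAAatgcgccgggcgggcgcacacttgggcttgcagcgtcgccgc
Prc1: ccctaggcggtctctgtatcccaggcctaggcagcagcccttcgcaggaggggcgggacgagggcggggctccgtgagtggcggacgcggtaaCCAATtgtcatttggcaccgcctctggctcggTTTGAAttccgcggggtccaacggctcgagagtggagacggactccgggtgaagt
Cks2: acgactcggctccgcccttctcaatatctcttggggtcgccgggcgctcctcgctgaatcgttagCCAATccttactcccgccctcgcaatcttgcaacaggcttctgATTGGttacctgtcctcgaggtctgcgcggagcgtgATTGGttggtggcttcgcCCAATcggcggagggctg
Cenpe: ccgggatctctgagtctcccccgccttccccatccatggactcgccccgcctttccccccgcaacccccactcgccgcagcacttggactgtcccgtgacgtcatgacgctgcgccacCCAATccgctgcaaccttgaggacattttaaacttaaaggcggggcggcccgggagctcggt
Pttg1: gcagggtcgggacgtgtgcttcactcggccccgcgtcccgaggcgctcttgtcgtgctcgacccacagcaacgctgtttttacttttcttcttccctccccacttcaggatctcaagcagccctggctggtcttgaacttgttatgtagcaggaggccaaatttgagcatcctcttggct
In Ccnb2 the CHR near the start begins at base 4 and in Kif23 at base 2, counted from 0 at the start site. In the Prc1 window shown it begins at base -5. The Pttg1 window shown lies inside the annotated gene, downstream of its 5' end. Nuf2, Nusap1, Ncaph and Mad2l1 also had neither motif in their windows. For them the combination of IL-4 with IL-6 did lie below the sum, by differences of -0.37, -0.57, -0.47 and -0.33. The 24 measured genes with a CHR and the 8 measured genes with a window and no CHR had the same median log2 difference in IL-4+IL-6 against unstimulated, -1.05 and -1.05. With IL-6 these medians were both -0.44.

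All differences below are on the log2 scale, first group minus second, from limma's linear model fitted to all 29 arrays and all tested genes. A gene was called lower or higher where the Benjamini-Hochberg adjusted p over the 7154 genes was under 0.05. Shares of all tested genes belong to this fit or, where named, to the fit without IL-10 replicate 1. They were not counted for other alternative fits, so counts from those stand without a background. The comparisons with unstimulated share its 8 arrays, so their values are not independent of each other. As a description of each array, an array score was taken as the median over the 39 genes of the log2 value minus the gene's unstimulated mean.

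1 array stood apart from its group. IL-10 replicate 1 had an array score of -0.011, while IL-10 replicates 2 and 3 had -0.651 and -0.624. In IL-10 replicate 1, 20 of the 39 genes lay below their unstimulated mean, against 39 and 38 of 39 in the other two arrays. Genes that answer IL-10 were nevertheless raised in it. Socs3, which encodes a feedback inhibitor of cytokine signalling, read 11.8 there, 12.2 and 12.4 in replicates 2 and 3, and between 6.12 and 6.99 in the unstimulated arrays. Results of the IL-10 group are therefore given with and without this array. The unstimulated arrays numbered 6 to 8 may be the controls of the IL-10 groups, whose replicates are numbered 1 to 3. Set against unstimulated 1 to 5, they differed by a median of 0.11 over the 39 genes, with 1 gene called higher (Racgap1) and 0 lower, where 12.3% of all tested genes were called higher and 6.82% lower.

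11 of 12 macrophage markers had a probe set and all 11 lay above the filter level on average, whereas 0 of 10 myeloid progenitor markers, 0 of 8 measured T and NK cell markers and 0 of 10 fibroblast and stromal markers did. Above the filter level on average were also 3 of 8 measured erythroid and megakaryocyte markers (highest Pf4, mean 11.7), 3 of 8 dendritic cell markers (highest Itgax, 11.4), 2 of 9 B cell markers (highest Ighm, 11.7) and 1 of 10 mast cell, basophil and eosinophil markers. The summed level of the progenitor markers ranged from 9.04 to 9.40 in unstimulated arrays, 9.25 to 9.53 with IL-4, 9.15 to 9.44 with IL-6, 9.18 to 9.43 with IL-10, 9.19 to 9.29 with IL-4+IL-6 and 9.10 to 9.26 with IL-4+IL-10. Array scores of these lists, taken over the members that passed the filter, differed between groups. Those of the macrophage markers were -0.400 to -0.328 with IL-4, -0.463 to -0.368 with IL-4+IL-6 and -0.450 to -0.347 with IL-4+IL-10, against 0.082 to 0.166 with IL-6. Of 10 neutrophil markers, 7 lay above the filter level. The neutrophil scores were -0.731 to -0.346 with IL-4, -0.896 to -0.581 with IL-4+IL-6 and -0.816 to -0.073 with IL-4+IL-10, against -0.253 to 0.413 unstimulated. With IL-6 they were -0.470 to 0.036 and with IL-10 -0.216 to 0.422. The fibroblast score, which rests on 1 tested gene, was 0.575 to 1.211 with IL-4, 1.495 to 1.838 with IL-4+IL-6 and 1.065 to 1.325 with IL-4+IL-10, against -0.154 to 0.292 unstimulated. The dendritic cell score (5 tested genes) was 0.442 to 1.095, 0.581 to 0.769 and 0.947 to 1.068 in the same groups, against -0.137 to 0.180. The erythroid and megakaryocyte score (4 tested genes) was 0.371 to 0.659 with IL-6 and 0.472 to 0.876 with IL-10, against -0.202 to 0.217. The mast cell, basophil and eosinophil score (2 tested genes) was -0.872 to -0.333 with IL-4+IL-6, against -0.157 to 0.114. The B cell score (4 tested genes) was -1.035 to -0.856 in unstimulated 6 to 8 and -0.066 to 1.203 in unstimulated 1 to 5, and lay at -1.192 to -1.008 with IL-10 and -1.655 to -1.429 with IL-4+IL-10. The 3' minus 5' signal of the Actb probe sets, a sign of RNA integrity, was 0.220 to 0.263 with IL-6, 0.345 to 0.391 with IL-4+IL-6 and 0.309 to 0.504 unstimulated. Their part in the results below was not tested.

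The mitosis genes stood near the unstimulated level with IL-4, lower with IL-6 and lowest with IL-4+IL-6. Unstimulated arrays had array scores from -0.161 to 0.155 and the IL-4 arrays from -0.088 to 0.047. The IL-6 arrays ranged from -0.511 to -0.335 and the IL-4+IL-6 arrays from -1.221 to -0.795, so neither overlapped with the unstimulated arrays or with each other. The IL-4+IL-10 arrays read -0.428, -0.744 and -0.657. Within the first set, where replicate numbers were taken to pair the arrays, the score fell from unstimulated to IL-6 in 5 of 5 numbers. The differences ranged from -0.444 to -0.350. From IL-6 to IL-4+IL-6 it fell again in 5 of 5, by differences from -0.710 to -0.395.

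**Figure D1:**
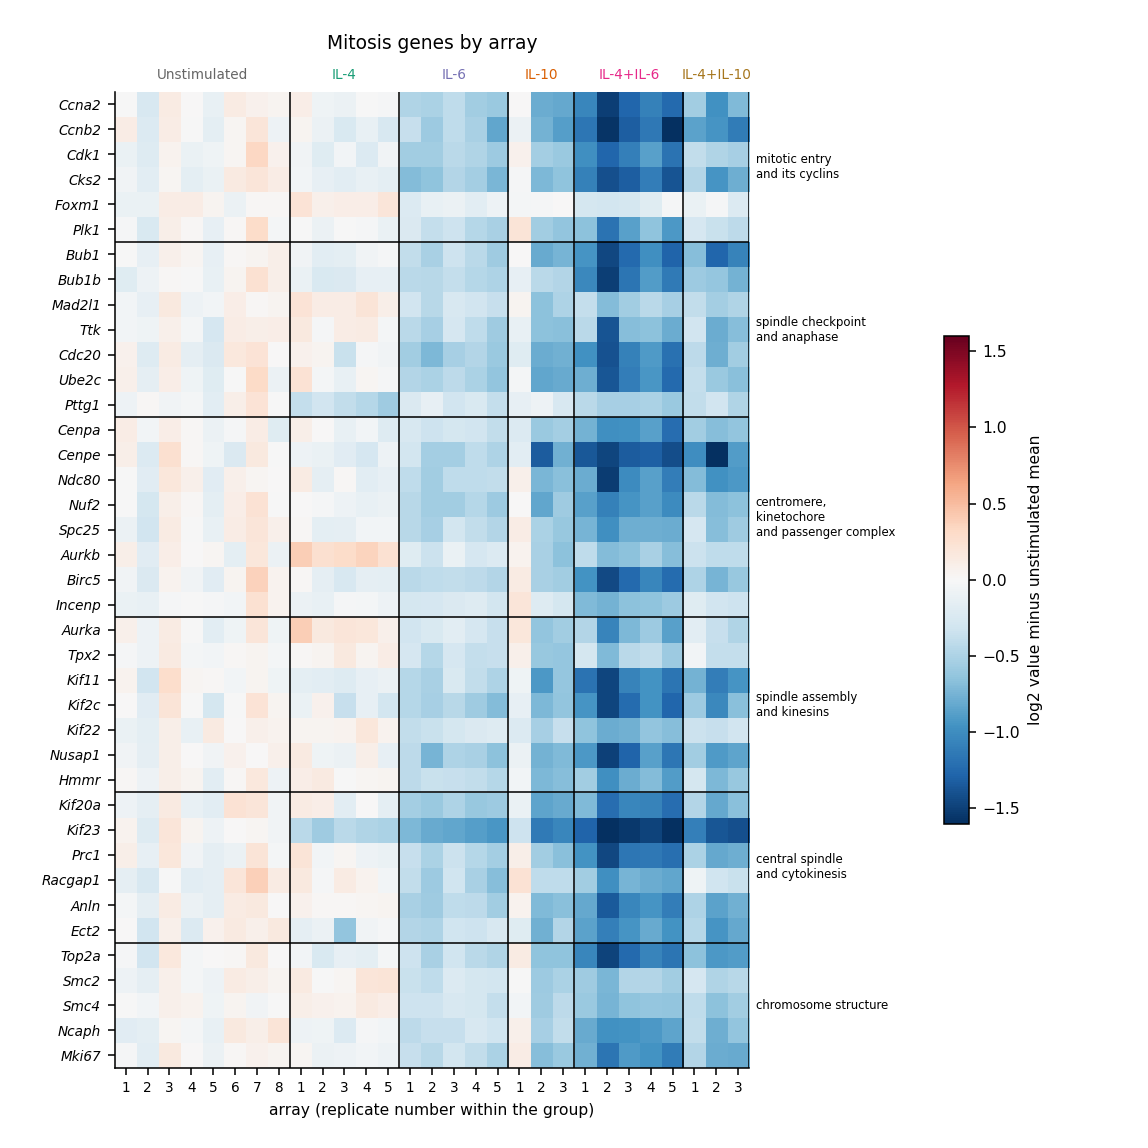
Each cell is the log2 value of 1 of 39 mitosis genes on 1 of 29 arrays minus that gene's unstimulated mean (blue lower, red higher), with genes grouped by role and arrays by stimulation. The IL-6, IL-4+IL-6 and IL-4+IL-10 arrays are blue in nearly all rows, and IL-10 replicate 1 (score -0.011) is pale beside replicates 2 and 3.

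With IL-6, all 39 genes were called lower and 0 higher, where 23.1% of all tested genes were called lower and 16.1% higher. The median difference was -0.43, a median fold of 1.34, beside -0.03 over all tested genes. The arrays of the 2 groups did not overlap for 31 of the 39 genes, a count that was not taken over all tested genes. The largest difference was that of Kif23 (-0.84) and the smallest that of Foxm1 (-0.13). With the replicate number as a block, the first-set arrays alone also gave 39 called lower.

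With IL-10, 35 of 39 genes were called lower and 0 higher, where 19.5% of all tested genes were called lower and 18.3% higher. The median difference was -0.39 (all tested genes 0.00). The genes not called were Foxm1 (-0.02), Pttg1 (-0.16), Incenp (-0.10) and Racgap1 (-0.19). With a term for the set, Pttg1 (-0.26, adjusted p = 0.0050) and Racgap1 (-0.43, adjusted p = 0.010) were called, and 36 genes in all. With replicate 1 included, the IL-10 and unstimulated arrays did not overlap for 3 genes, again without a count over all tested genes. Without that array, 37 of 39 were called lower, with a median of -0.62, where 19.6% of all tested genes were called lower. Foxm1 (-0.01) and Pttg1 (-0.17) were then the genes not called. Leaving out IL-10 replicate 2 in its place gave 20 genes called lower, and the second-set arrays alone (unstimulated 6 to 8 as controls) gave 18.

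With IL-4 alone, 2 genes were called higher and 2 lower of 39, below the shares of all tested genes, which were 27.6% higher and 31.9% lower. The median difference was -0.05, beside -0.01 over all tested genes. Aurkb (0.31) and Foxm1 (0.14) were higher, and Kif23 (-0.49) and Pttg1 (-0.42) lower. Since the replicate numbers were taken to pair the first-set arrays, the fit with the replicate block is given beside these counts. On the first-set arrays it called 7 genes higher and 4 lower, and on all arrays 6 higher and 2 lower. The block on all arrays used the number alone, so IL-10 and IL-4+IL-10 arrays shared blocks with first-set arrays of the same number.

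With IL-4+IL-6, all 39 genes were called lower and 0 higher, where 38.8% of all tested genes were called lower and 35.0% higher. The median difference was -0.98 (all tested genes -0.02), and the median fold between unstimulated and IL-4+IL-6 was 1.98, with folds from 1.16 (Foxm1) to 2.95 (Kif23). The arrays did not overlap for 38 genes, which was not counted over all tested genes. Against IL-4 alone, 38 genes were called lower (median -0.94) and 0 higher, with 31.2% of all tested genes lower and 29.4% higher, and the gene not called was Pttg1 (-0.10). Against IL-6 alone, 36 were called lower (median -0.56) and 0 higher, with 32.9% and 34.0% of all tested genes. Foxm1 (-0.08), Tpx2 (-0.13) and Mad2l1 (-0.18) were not called there.

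With IL-4+IL-10, 37 of 39 genes were called lower and 0 higher, where 34.0% of all tested genes were called lower and 38.1% higher. The median difference was -0.60 (all tested genes 0.02), and Foxm1 (-0.12) and Racgap1 (-0.25) were not called. Against IL-4 alone, 36 were called lower (median -0.59) and 0 higher, with 24.6% and 32.7% of all tested genes. Pttg1 (0.03), Plk1 (-0.30) and Racgap1 (-0.31) were not called there. The IL-4 and IL-4+IL-10 arrays lie in different sets, so a difference between the sets enters this comparison. Against IL-10 alone, 13 were called lower (median -0.19) and 0 higher, a share of members near the background of 28.1% lower and 31.8% higher. That count rested on IL-10 replicate 1: without it, 1 gene was called lower (Pttg1, -0.22) and 1 higher (Tpx2, 0.34), with a median of -0.04. Of all tested genes, 26.1% were called lower and 31.8% higher without that array. With the replicate block on the IL-10 and IL-4+IL-10 arrays alone, 20 genes were called lower, and no share of all tested genes was counted for that fit.

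**Figure D2:**
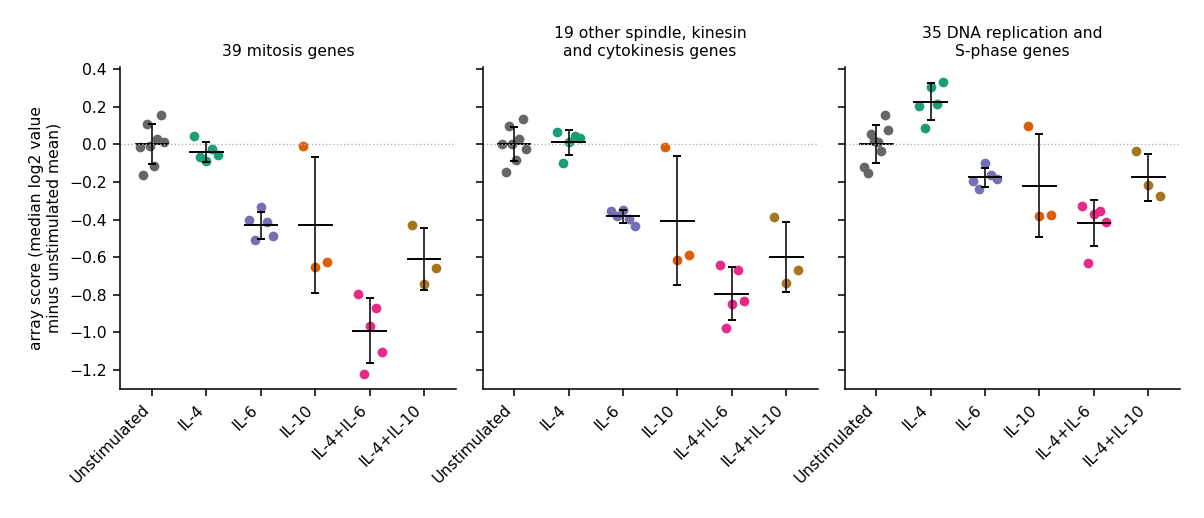
Array score (median log2 value of a gene list minus its unstimulated mean) of each of 29 arrays in 6 groups, for the 39 mitosis genes, 19 other spindle, kinesin and cytokinesis genes and 35 DNA replication and S-phase genes. Points run in replicate order and black lines are group means ± SD (n = 8, 5, 5, 3, 5 and 3). The IL-4 arrays sit near 0 in the left and middle panels and from 0.085 to 0.332 in the right panel.

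Set against each other, IL-10 and IL-6 gave no called gene among the 39. In IL-10 minus IL-6, 0 of 39 genes were called in either direction and the median difference was -0.01, with single genes from -0.30 (Cenpe) to 0.31 (Racgap1). Of all tested genes, 5.62% were called lower and 6.26% higher. With the replicate block on all arrays, which matched numbers across the 2 sets, 1 gene was called lower and 1 higher. The IL-10 and IL-6 arrays lie in different sets, so a difference between the sets enters this comparison. Without IL-10 replicate 1, Cenpe (-0.59) and Aurkb (-0.36) were called lower and the median was -0.22. IL-4+IL-10 stood above IL-4+IL-6: 24 genes were called higher and 0 lower (median 0.34), where 26.9% of all tested genes were called higher and 16.0% lower. The 2 combinations were run in different sets of arrays, and with a term for the set 2 genes were called higher.

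The genes of mitotic entry include the mitotic cyclins, CDK1 and its partner Cks2. Ccnb2 (probe set 1450920_at), the gene of cyclin B2, ranged from 9.87 to 10.29 over the unstimulated arrays with a median of 10.11. It read 10.14, 10.00, 9.84, 9.97 and 9.84 with IL-4 and 9.72, 9.51, 9.69, 9.57 and 9.27 with IL-6. It read 8.94, 8.52, 8.78, 8.94 and 8.50 with IL-4+IL-6. The IL-6 arrays all lay below the unstimulated arrays, and the IL-4+IL-6 arrays all lay below the IL-6 arrays. In IL-10 it read 10.00, 9.34 and 9.21 and in IL-4+IL-10 9.24, 9.15 and 8.98, so of these 6 arrays only IL-10 replicate 1 reached the unstimulated range. The difference from unstimulated was -0.54 (SE 0.11, adjusted p = 1.8e-04) with IL-6, -1.36 (SE 0.11, adjusted p = 5.1e-12) with IL-4+IL-6 and -0.97 (SE 0.13, adjusted p = 1.3e-07) with IL-4+IL-10.

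Ccna2 (1417910_at), the gene of cyclin A2, followed the same order. Unstimulated arrays ranged from 10.08 to 10.47 with a median of 10.36, and the IL-4 arrays read 10.45, 10.27, 10.25, 10.33 and 10.31. The IL-6 arrays read 9.85, 9.83, 9.93, 9.79 and 9.74, and the IL-4+IL-6 arrays 9.29, 8.83, 9.07, 9.26 and 9.09. Neither group overlapped with the unstimulated arrays. IL-10 gave 10.35, 9.54 and 9.52, and IL-4+IL-10 9.79, 9.37 and 9.63. Its difference was -0.51 (SE 0.10) with IL-6, -1.23 (SE 0.10, adjusted p = 1.5e-11) with IL-4+IL-6 and -0.02 (SE 0.10, adjusted p = 0.90) with IL-4. A second probe set of Ccna2 gave -0.89 with IL-4+IL-6.

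Cks2 (1417457_at), whose product binds and helps CDK1, ranged from 10.40 to 10.77 unstimulated with a median of 10.57. It read 10.53, 10.44, 10.41, 10.46 and 10.42 with IL-4, and 9.89, 9.93, 10.10, 10.03 and 9.85 with IL-6. With IL-4+IL-6 it read 9.50, 9.17, 9.26, 9.47 and 9.20, below every other group's arrays. IL-10 gave 10.56, 9.85 and 9.93 and IL-4+IL-10 10.11, 9.63 and 9.79. The differences were -0.62 (SE 0.09, adjusted p = 6.4e-06) with IL-6 and -1.26 (SE 0.09, adjusted p = 1.9e-12) with IL-4+IL-6, and a second probe set gave -0.62 and -1.30.

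Foxm1 (1448833_at), the gene of a transcription factor of the late cell cycle, had the smallest differences of the 39 with IL-6, IL-10, IL-4+IL-6 and IL-4+IL-10, but was among the 4 genes called with IL-4. Its unstimulated arrays ranged from 7.17 to 7.40 with a median of 7.30, close to the filter level of 6.99. The IL-4 arrays read 7.50, 7.36, 7.39, 7.38 and 7.48, the IL-6 arrays 7.06, 7.16, 7.19, 7.11 and 7.19, and the IL-10 arrays 7.25, 7.26 and 7.28. The IL-4+IL-6 arrays read 7.00, 6.98, 6.99, 7.09 and 7.26 and the IL-4+IL-10 arrays 7.17, 7.26 and 7.05. Every group had at least 1 array inside the unstimulated range. The differences were 0.14 (SE 0.05, adjusted p = 0.014) with IL-4 and -0.21 (SE 0.05, adjusted p = 2.9e-04) with IL-4+IL-6. Of the other 2 probe sets above the filter, 1 gave 0.18 with IL-4 (called) and 1 gave -0.06 (not called), so its rise with IL-4 depended on the probe set.

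The other entry genes were given by their differences from unstimulated. Cdk1, the gene of the mitotic kinase, had -0.52 with IL-6, -0.36 with IL-10, -1.08 with IL-4+IL-6 and -0.47 with IL-4+IL-10. Plk1, the gene of a kinase of mitotic entry and spindle formation, had -0.38, -0.33, -0.85 and -0.35 in the same order. Both were called lower in all 4 comparisons and neither was called with IL-4 (-0.11 and -0.05).

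In the spindle checkpoint and anaphase genes, Bub1 and Cdc20 were among the largest differences. Bub1 (1424046_at), the gene of a checkpoint kinase, ranged from 9.70 to 9.92 unstimulated with a median of 9.86, and read 9.78, 9.66, 9.68, 9.78 and 9.81 with IL-4. It read 9.44, 9.31, 9.50, 9.39 and 9.26 with IL-6 and 8.89, 8.37, 8.58, 8.85 and 8.55 with IL-4+IL-6. IL-10 gave 9.83, 9.02 and 9.08 and IL-4+IL-10 9.15, 8.56 and 8.76. The IL-6 arrays lay below the unstimulated and IL-4 arrays, and the arrays of both combinations lay below all IL-6 arrays. The difference with IL-4+IL-10 was -1.01 (SE 0.13, adjusted p = 5.6e-08) and with IL-4+IL-6 -1.18 (SE 0.11, adjusted p = 6.8e-11).

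Cdc20 (1439377_x_at), which encodes an activator of the anaphase-promoting complex, ranged from 9.72 to 10.17 unstimulated with a median of 9.99. It read 10.02, 10.00, 9.59, 9.93 and 9.90 with IL-4 and 9.39, 9.23, 9.43, 9.49 and 9.36 with IL-6. With IL-4+IL-6 it read 8.98, 8.56, 8.88, 9.05 and 8.76. IL-10 gave 9.76, 9.16 and 9.19, with replicate 1 alone inside the unstimulated range, and IL-4+IL-10 gave 9.53, 9.18 and 9.40. Its differences were -0.58 (SE 0.10, adjusted p = 4.2e-05) with IL-6 and -1.11 (SE 0.10, adjusted p = 1.1e-10) with IL-4+IL-6, and 2 further probe sets gave -0.73 and -0.51 for the latter.

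Pttg1 (1438390_s_at), the gene of securin, which holds separase inactive until anaphase, had another order of groups. Its unstimulated arrays ranged from 11.10 to 11.49 with a median of 11.26. It read 10.89, 10.97, 10.88, 10.82 and 10.70 with IL-4, below every unstimulated array. It read 11.03, 11.14, 10.97, 11.02 and 10.89 with IL-6, overlapping with unstimulated, and 10.84, 10.74, 10.74, 10.76 and 10.68 with IL-4+IL-6. IL-10 gave 11.14, 11.19 and 11.01 and IL-4+IL-10 10.88, 10.97 and 10.79. The difference was -0.42 (SE 0.05, adjusted p = 1.8e-07) with IL-4, larger in size than that with IL-6 (-0.26, SE 0.05, adjusted p = 3.3e-04). Adding IL-6 to IL-4 gave -0.10 (SE 0.06, adjusted p = 0.15). All 3 probe sets were called lower with IL-4 (-0.42, -0.46 and -0.23).

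The remaining checkpoint genes fell in all 4 of the IL-6 and IL-10 comparisons with unstimulated. Bub1b, which encodes the checkpoint protein BUBR1, had -0.44 with IL-6 and -1.15 with IL-4+IL-6. Ube2c, the gene of a ubiquitin-conjugating enzyme of the anaphase-promoting complex, had -0.51 and -1.09. Ttk, the gene of the checkpoint kinase MPS1, had -0.44 and -0.79, and Mad2l1, the gene of the checkpoint protein MAD2, -0.34 and -0.52. None of the 4 was called with IL-4, where their differences ranged from -0.17 (Bub1b) to 0.15 (Mad2l1).

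Among the centromere and kinetochore genes, Cenpe (1439040_at) had the largest differences with IL-10, IL-4+IL-6 and IL-4+IL-10, but not with IL-6 (Nuf2, -0.52) or IL-4 (Aurkb, 0.31). It encodes a kinesin that moves chromosomes to the spindle equator. Its unstimulated arrays ranged from 8.29 to 8.77 with a median of 8.52, and the IL-4 arrays read 8.44, 8.40, 8.34, 8.25 and 8.44. It read 8.22, 7.97, 7.98, 8.11 and 8.03 with IL-6 and 7.16, 7.05, 7.18, 7.21 and 7.09 with IL-4+IL-6. IL-10 gave 8.35, 7.19 and 7.75 and IL-4+IL-10 7.53, 6.90 and 7.63. The IL-4+IL-6 arrays clustered within a narrow band, whereas the arrays of both IL-10 groups were widely spread. The differences were -0.46 (SE 0.13, adjusted p = 0.0047) with IL-6, -1.38 (SE 0.13, adjusted p = 1.0e-10) with IL-4+IL-6 and -1.17 (SE 0.15, adjusted p = 9.0e-08) with IL-4+IL-10. With IL-10 it was -0.75 with all arrays and -1.05 without replicate 1.

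Aurkb (1424128_x_at), the gene of the Aurora B kinase of the chromosomal passenger complex, rose with IL-4. It ranged from 8.23 to 8.60 unstimulated with a median of 8.44, and read 8.81, 8.67, 8.71, 8.77 and 8.66 with IL-4, above every unstimulated array. It read 8.22, 8.07, 8.30, 8.15 and 8.20 with IL-6 and 8.01, 7.72, 7.76, 7.89 and 7.74 with IL-4+IL-6. IL-10 gave 8.47, 7.89 and 7.75 and IL-4+IL-10 8.07, 8.01 and 8.00. The difference was 0.31 (SE 0.08, adjusted p = 0.0018) with IL-4, -0.23 (SE 0.08, adjusted p = 0.029) with IL-6 and -0.59 (SE 0.08, adjusted p = 2.6e-07) with IL-4+IL-6. The second probe set gave 0.27, -0.28 and -0.65, all called.

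The rest of this group moved with the majority. The other passenger genes were Birc5, which encodes survivin (-0.42 with IL-6, -1.19 with IL-4+IL-6), and Incenp, the scaffold gene (-0.26 and -0.67). Ndc80 (-0.43 and -1.06), Nuf2 (-0.52 and -0.95) and Spc25 (-0.43 and -0.81) encode subunits of the NDC80 complex, which grips microtubules. Cenpa, the gene of the histone H3 variant of centromeres, had -0.31 and -0.96. All 6 were called lower in both comparisons, and none was called with IL-4.

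**Figure D3:**
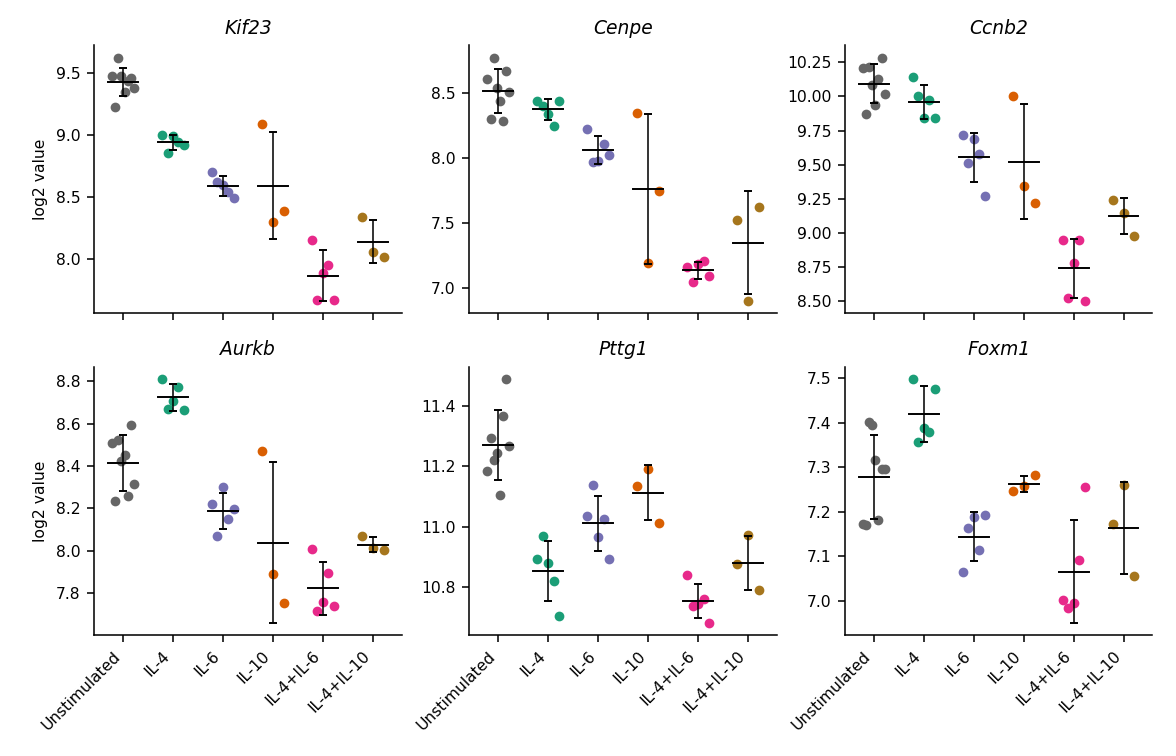
Log2 values of 6 genes on each of 29 arrays in 6 groups, with points in replicate order and black lines giving the group mean ± SD (n = 8, 5, 5, 3, 5 and 3). Kif23, Cenpe and Ccnb2 step down from unstimulated to IL-6 to IL-4+IL-6, Aurkb is higher and Pttg1 lower with IL-4 (0.31 and -0.42), and Foxm1 spans a narrow range.

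Among the spindle genes, Nusap1 (1416309_at), which encodes a protein that bundles microtubules near chromosomes, ranged from 9.14 to 9.37 unstimulated with a median of 9.28. It read 9.42, 9.21, 9.18, 9.37 and 9.14 with IL-4 and 8.85, 8.53, 8.78, 8.76 and 8.62 with IL-6. It read 8.36, 7.78, 8.00, 8.40 and 8.12 with IL-4+IL-6. IL-6 and IL-4+IL-6 arrays lay below all unstimulated arrays without overlap between them. IL-10 gave 9.18, 8.53 and 8.57 and IL-4+IL-10 8.71, 8.37 and 8.43. The differences were -0.57 (SE 0.10, adjusted p = 3.7e-05) with IL-6 and -1.14 (SE 0.10, adjusted p = 3.4e-11) with IL-4+IL-6.

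The kinesin Kif11, which pushes the spindle poles apart, had -0.42 with IL-6 and -1.17 with IL-4+IL-6, and Kif2c, which depolymerizes microtubules at the centromere, -0.54 and -1.17. Kif22, the gene of a kinesin on chromosome arms, had -0.29 and -0.71, and Hmmr, a spindle pole protein gene, -0.40 and -0.78. Aurka, the Aurora A kinase gene, had -0.27 and -0.74, and its activator gene Tpx2 -0.35 and -0.48. These 6 were called lower in both comparisons and not called with IL-4, where Aurka stood at 0.20 (adjusted p = 0.097).

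Kif23 (1455990_at), of the central spindle and cytokinesis group, had the largest difference from unstimulated in all 5 comparisons. It encodes the kinesin MKLP1 of the centralspindlin complex. Its unstimulated arrays ranged from 9.23 to 9.62 with a median of 9.45, and the IL-4 arrays read 9.0, 8.85, 8.99, 8.94 and 8.91, below all of them. It read 8.70, 8.62, 8.59, 8.54 and 8.49 with IL-6 and 8.15, 7.67, 7.88, 7.95 and 7.67 with IL-4+IL-6. IL-10 gave 9.09, 8.30 and 8.39 and IL-4+IL-10 8.34, 8.06 and 8.02. No stimulated array reached the unstimulated range, IL-10 replicate 1 included. The difference was -0.49 (SE 0.10, adjusted p = 9.0e-05) with IL-4, -0.84 (SE 0.10, adjusted p = 5.1e-08) with IL-6, -0.83 (SE 0.11, adjusted p = 1.2e-06) with IL-10, -1.56 (SE 0.10, adjusted p = 2.3e-14) with IL-4+IL-6 and -1.29 (SE 0.11, adjusted p = 9.4e-11) with IL-4+IL-10. Its 2 other probe sets did not pass the filter.

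Prc1 (1423775_s_at), which encodes the microtubule bundling protein of the midzone, ranged from 9.35 to 9.70 unstimulated with a median of 9.45. It read 9.70, 9.45, 9.53, 9.42 and 9.39 with IL-4 and 9.13, 8.98, 9.16, 9.04 and 8.95 with IL-6. It read 8.54, 8.04, 8.34, 8.36 and 8.29 with IL-4+IL-6, again below all IL-6 arrays. IL-10 gave 9.60, 8.94 and 8.82 and IL-4+IL-10 8.99, 8.68 and 8.71. The differences were 0.00 (SE 0.10) with IL-4, -0.44 (SE 0.10) with IL-6 and -1.18 (SE 0.10, adjusted p = 1.5e-11) with IL-4+IL-6, and a second probe set gave 0.00, -0.44 and -1.23.

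Kif20a (1449207_a_at), the gene of the kinesin MKLP2 that carries the passenger complex to the midzone, ranged from 8.42 to 8.81 unstimulated with a median of 8.51. It read 8.72, 8.69, 8.41, 8.59 and 8.43 with IL-4 and 8.04, 7.99, 8.09, 7.98 and 8.00 with IL-6. With IL-4+IL-6 it read 7.87, 7.36, 7.54, 7.51 and 7.36. The IL-6 arrays were tightly grouped below the unstimulated range and above the IL-4+IL-6 arrays. IL-10 gave 8.47, 7.74 and 7.78 and IL-4+IL-10 8.11, 7.77 and 7.91. The difference was -0.56 (SE 0.10, adjusted p = 6.6e-05) with IL-6 and -0.58 (SE 0.12, adjusted p = 3.6e-04) with IL-10, or -0.82 without IL-10 replicate 1.

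Of the other cytokinesis genes, Anln, the anillin gene, had -0.49 with IL-6 and -1.05 with IL-4+IL-6, and Ect2, which encodes the exchange factor that activates RhoA at the midzone, -0.37 and -0.93. Racgap1, the centralspindlin partner of Kif23, had -0.50 and -0.78 but was not called with IL-10 (-0.19) or IL-4+IL-10 (-0.25). With a term for the set, Racgap1 was called lower with IL-10 (-0.43, adjusted p = 0.010), as it was without IL-10 replicate 1 (-0.40, adjusted p = 0.012). Racgap1 was also the gene called higher in unstimulated 6 to 8 than in 1 to 5.

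Of the chromosome structure genes, Smc4 (1452197_at), a condensin core subunit gene, had the narrowest groups. It ranged from 11.10 to 11.24 unstimulated with a median of 11.16 and read 11.25, 11.23, 11.22, 11.30 and 11.28 with IL-4. It read 10.83, 10.83, 10.91, 10.88 and 10.79 with IL-6 and 10.57, 10.42, 10.52, 10.54 and 10.53 with IL-4+IL-6. These 2 groups overlapped neither with unstimulated nor with each other. IL-10 gave 11.13, 10.59 and 10.74 and IL-4+IL-10 10.76, 10.51 and 10.61. The differences were -0.32 (SE 0.06, adjusted p = 4.0e-05) with IL-6 and -0.65 (SE 0.06, adjusted p = 3.2e-11) with IL-4+IL-6. Its partner Smc2 had -0.31 and -0.56, and the condensin I subunit gene Ncaph -0.35 and -0.90. Top2a, the gene of the topoisomerase that untangles sister chromatids, had -0.42 and -1.20, and Mki67, the gene of the Ki-67 antigen that coats mitotic chromosomes, -0.40 and -0.98.

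**Figure D4:**
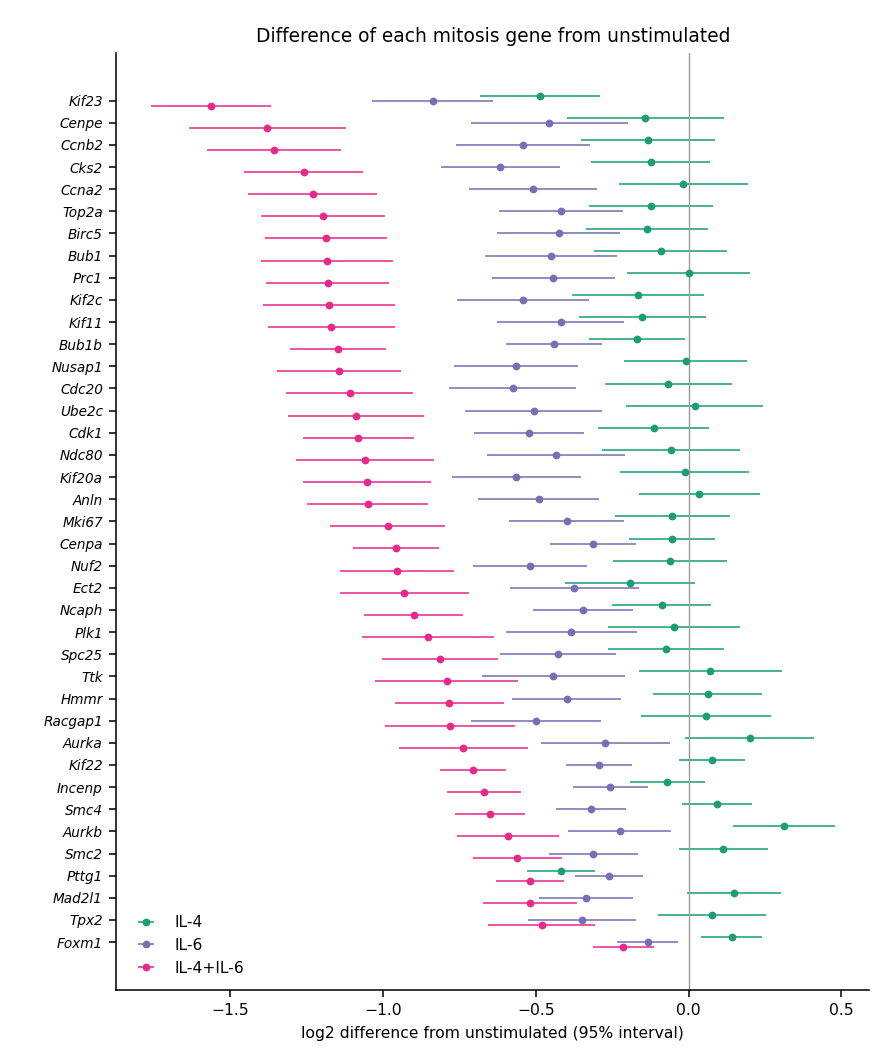
Log2 difference from unstimulated of each of 39 genes with IL-4, IL-6 and IL-4+IL-6, with 95% intervals from the linear model, ordered by the IL-4+IL-6 difference. From Kif23 (-1.56) down to Foxm1 (-0.21) all IL-4+IL-6 points lie below 0, and most IL-4 intervals include 0.

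In IL-4+IL-6 the median difference by role was -1.16 for the 6 measured genes of mitotic entry, -1.09 for the 7 of the checkpoint and anaphase and -0.96 for the 8 of the centromere, kinetochore and passenger complex. It was -0.78 for the 7 of spindle assembly, -1.05 for the 6 of the central spindle and cytokinesis and -0.90 for the 5 of chromosome structure. The ranges of single genes within the roles overlapped. Other probe sets of the same genes gave the same direction: of 62 probe sets above the filter, 62 lay below 0 in IL-4+IL-6 and 61 were called lower, with a median of -0.82. With IL-6, 62 lay below 0 and 58 were called lower. The 11 probe sets that did not pass the filter were not tested.

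The combination of IL-4 with IL-6 went beyond the sum of the single cytokines. The interaction term compares the combination with the sum of the log2 effects of the single cytokines, and 0 means that they add. The sum of the single differences had a median of -0.49 over the 39 genes and the combination -0.98, and the combination lay below the sum for 38 of 39 genes. The interaction was called lower for 32 genes and higher for 0 (median -0.48), where 18.6% of all tested genes were called lower and 21.4% higher. The largest were Cenpe (-0.78, SE 0.19, adjusted p = 0.0014), Prc1 (-0.74, SE 0.15, adjusted p = 1.8e-04), Ccna2 (-0.70, SE 0.15, adjusted p = 5.0e-04) and Ccnb2 (-0.68, SE 0.16, adjusted p = 0.0011), whose arrays are given above. Prc1 and Ccna2 stood at the unstimulated level with IL-4 alone (0.00 and -0.02), and IL-4+IL-6 lay below IL-6 alone by differences of -0.74 and -0.72. The 7 genes not called were Kif23 (-0.24), Pttg1 (0.16), Tpx2 (-0.21), Ttk (-0.42), Spc25 (-0.31), Racgap1 (-0.34) and Ect2 (-0.37). In the fit without IL-10 replicate 1, 36 genes were called lower and 0 higher, where 18.9% and 21.5% of all tested genes were.

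For IL-4 with IL-10, 2 genes were called lower and 0 higher (median -0.15), below the 10.1% lower and 15.5% higher among all tested genes. They were Smc4 (-0.28, SE 0.10, adjusted p = 0.032) and Foxm1 (-0.24, SE 0.08, adjusted p = 0.036). The combination lay below the sum for 33 of 39 genes. These values depended on IL-10 replicate 1: without it 0 genes were called and the median was 0.03. With the replicate block on all arrays, which matched numbers across the 2 sets, 5 genes were called lower. The IL-4 arrays lie in the first set and the IL-10 and IL-4+IL-10 arrays in the second. A difference between the sets can therefore enter this interaction. Whether the interaction with IL-6 differs from that with IL-10 was not tested.

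**Figure D5:**
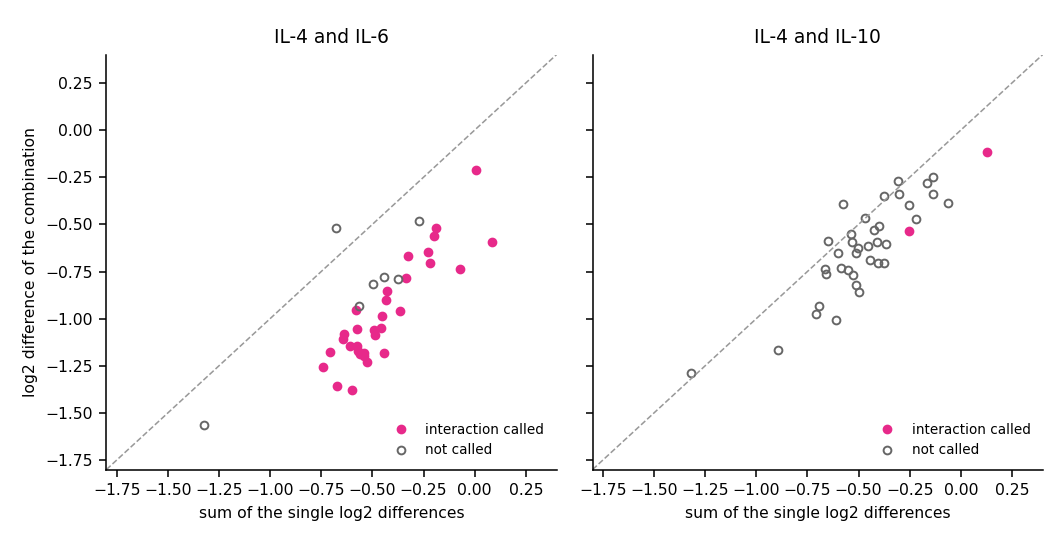
For each of 39 genes, the log2 difference of the combination from unstimulated (vertical) against the sum of the differences of both single cytokines (horizontal), for IL-4 with IL-6 (left) and IL-4 with IL-10, all arrays (right). Filled points have a called interaction (32 left, 2 right), and the dashed line marks equal values.

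The genes also moved together within groups. After group means were removed, the correlation across the 29 arrays had a median of 0.765 over the 741 pairs of these genes, beside 0.085 over pairs of all tested genes. Without IL-10 replicate 1 the median was 0.618. The pairs share their arrays, so this is a description. Anln (median r with the other genes 0.877), Ccna2 (0.860) and Mki67 (0.851) varied most closely with the rest. Foxm1 (0.041) and Pttg1 (0.202) varied least with it. In Unstimulated replicate 2, 38 of 39 genes lay below the unstimulated mean, and in Unstimulated replicate 7, 1 of 39 did.

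Further mitosis genes outside the list were counted in the same comparisons. Of 113 listed, 80 were on the array and 74 were tested. With IL-6, 47 were called lower and 1 higher (median -0.29), with IL-10 39 and 3 (-0.25), with IL-4+IL-6 59 and 3 (-0.61) and with IL-4+IL-10 49 and 9 (-0.34). Of all tested genes, 23.1% were called lower with IL-6, 19.5% with IL-10, 38.8% with IL-4+IL-6 and 34.0% with IL-4+IL-10. With IL-4, 10 were called lower and 9 higher (0.03), below the shares of all tested genes (31.9% and 27.6%). The interaction with IL-6 was called lower for 36 and higher for 2 (18.6% and 21.4% of all tested genes). By list, the entry and exit control genes had a median of -0.23 with IL-6 and -0.20 with IL-4+IL-6, and the spindle, kinesin and cytokinesis genes -0.39 and -0.82. In the spindle, kinesin and cytokinesis list, Aspm, which encodes a spindle pole protein, had -1.67 (SE 0.10, adjusted p = 1.1e-14) with IL-4+IL-6 and Spag5 -1.30. In the kinetochore list, Cenpf had -1.50 (SE 0.11, adjusted p = 2.1e-12), and in the entry list the kinase gene Pbk had -1.45 (SE 0.11, adjusted p = 3.9e-12). The cohesin and condensin list had a median of -0.07 with IL-6 and -0.44 with IL-4+IL-6 (9 of 11 called lower), with Ncapd2 at -1.24. In it, Ncapg2 was lower with IL-4 (-0.84, SE 0.08, adjusted p = 1.4e-09) and higher with IL-10 (0.43, SE 0.10, adjusted p = 0.0011).

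Genes of DNA replication and S phase, which comes earlier in the cell cycle than mitosis, were set beside the mitosis genes. Of 35 tested, 22 were called higher and 1 lower with IL-4 (median 0.24), where 27.6% and 31.9% of all tested genes were, and 2 and 2 of the 39 mitosis genes. Rfc5, which encodes a subunit of the clamp loader, rose by 0.51 (SE 0.06, adjusted p = 5.9e-08), Ccne1, the cyclin E1 gene, by 0.42 and Uhrf1 by 0.41. The IL-4 array scores of this list ranged from 0.085 to 0.332, against -0.151 to 0.158 unstimulated, so they overlapped in part. With IL-6, 17 were called lower and 0 higher (median -0.17), with IL-10 16 and 0 (-0.22) and with IL-4+IL-6 28 and 0 (-0.41). The shares of all tested genes called lower were 23.1%, 19.5% and 38.8%. Tk1, the thymidine kinase gene, had -1.67 (SE 0.11, adjusted p = 4.3e-14) and Rrm2 -0.99 with IL-4+IL-6. The interaction with IL-6 was called lower for 29 of 35 (median -0.44), against 18.6% of all tested genes. The difference between the lists was not tested.

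Of the regulators of G1, 17 were tested, and single genes are given without a reading of the list. Of these, 5 were called higher and 7 lower with IL-4 (all tested genes 27.6% and 31.9%), 3 and 9 with IL-6 (16.1% and 23.1%), and 5 and 10 with IL-4+IL-6 (35.0% and 38.8%). Cdkn1b, the gene of the CDK inhibitor p27, was lower with IL-4 (-0.71, SE 0.07, adjusted p = 7.8e-10) and with IL-4+IL-6 (-1.15, SE 0.07, adjusted p = 1.1e-14). Cdkn1c, the gene of the inhibitor p57, was lower with IL-4 (-1.04), IL-6 (-0.84), IL-10 (-1.05) and IL-4+IL-6 (-1.60). Ccnd1, the cyclin D1 gene, was lower with IL-6 (-0.43) and IL-4+IL-6 (-1.12). Myc, a transcription factor gene of growth, was higher with IL-4 (0.76, SE 0.08, adjusted p = 1.1e-08) and IL-4+IL-10 (0.86).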

How the data were processed

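Total RNA of 29 macrophage samples was measured on Affymetrix 3' expression arrays with 22690 probe sets. The deposited values are log2 expression values that the authors made with RMA after scanning with GCOS 1.4, per the submitters' processing notes; whether all arrays were normalized together is not given in the sources used here. Probe sets were named from GEO's platform annotation: 20393 had 1 gene, 691 several and 1606 none. Groups were compared with limma 3.58.1 in R 4.3.3 (lmFit and eBayes, 6 group means, Benjamini-Hochberg adjustment). The code was run on simulated data with independent arrays. That check cannot judge the fit where arrays correlate by replicate number.

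The replicate numbers were taken to pair the arrays: all 30 same-number pairs among the IL-4, IL-6, IL-4+IL-6 and unstimulated 1 to 5 arrays correlated at 0.457 to 0.700 after group means were removed, and the 3 pairs of IL-10 and IL-4+IL-10 arrays at 0.596 to 0.776. The 120 different-number pairs of the first set ranged from -0.576 to 0.490. With IL-10 and IL-4+IL-10 replicate 3, Unstimulated 8 correlated at 0.714 and 0.711. Unstimulated 7 with their replicate 2 gave 0.423 and 0.580, and Unstimulated 6 with their replicate 1 gave 0.013 and 0.364. The split into these 2 sets was inferred from the numbers.

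The genes and lists were chosen with earlier results of these data known. Array values are given for genes with the 4 largest called differences in a comparison with unstimulated, for genes called against the majority and for the 4 largest called interactions. From the other lists up to 3 genes per comparison could be named. All other genes of the list are given by their differences. Alternatives covered normalization, filter, probe set choice, test settings, arrays left out, blocks and thresholds; 4 were added after seeing the data, on paired arrays and on IL-10 replicate 1.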

Additional observations from a re-analysis of the deposited data

Results flagged for a closer look

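In 6 of the 160 groups of values tested, 1 array stood far from the others of its group by Dixon's criterion, where 5% would be passed by chance. Groups of 3 arrays, IL-10 among them, were not tested in this way. Ndc80 read 7.67 in IL-6 replicate 2. Spc25 read 8.62 and Smc4 10.4 in IL-4+IL-6 replicate 2, the array with the lowest array score of all. Kif22 read 10.7 in IL-4 replicate 4, Ect2 7.79 in IL-4 replicate 3 and Top2a 10.6 in Unstimulated replicate 2.

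The effect of IL-4 differed with and without IL-6 by limma's interaction term for 32 of the 39 genes. The largest of these interactions were Cenpe (-0.78), Prc1 (-0.74), Ccna2 (-0.70) and Ccnb2 (-0.68). For IL-4 with IL-10 the interaction passed for 2 genes, Smc4 (-0.28) and Foxm1 (-0.24), and for 0 genes without IL-10 replicate 1.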

How the results depend on the processing

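Several alternatives leave a probe set's difference of group means as it is, so its direction could not change there. They include other filters, the trended robust test, only the groups compared and leaving out an array outside the comparison. Of 335 called differences of single genes, 0 changed direction under any alternative that could be fitted, but some lost their call. With a term for the set 28 of 335 did, and 34 of 335 when IL-10 replicate 1 was also left out. On arrays of the same set 33 of 273 did, and on first-set arrays with the replicate block 0 of 188. The 1779 values for the 39 genes as a group were counts of called genes and medians. Of these, 1689 stayed near the main value and 90 moved. Medians could not move under the trended robust test or with only the groups compared. Counts were judged by their fold, and medians by the spread of array scores within groups (SD 0.154), IL-10 replicate 1 included. With each array left out in turn, IL-4+IL-6 had 39 genes called lower against unstimulated every time and IL-6 had 36 to 39. The filter at the 75th percentile left 23 of the genes to test, so its counts are lower: 23 with IL-6, 22 with IL-10, 23 with IL-4+IL-6, 23 with IL-4+IL-10, 22 for IL-4+IL-6 against IL-4, 23 against IL-6, 22 for IL-4+IL-10 against IL-4, 20 for the interaction with IL-6, 1 for that with IL-10 and 0 higher with IL-4. With a log2 difference of at least 0.5 also required, 12 genes were lower with IL-6, 10 with IL-10, 22 for IL-4+IL-6 against IL-6 and 18 for the interaction with IL-6, 7 were higher for IL-4+IL-10 against IL-4+IL-6, and 0 were left for IL-4 in both directions, IL-4+IL-10 against IL-10 and the interaction with IL-10; 37 were lower with IL-4+IL-6 and 27 with IL-4+IL-10. At an adjusted p under 0.01, 1 gene was higher with IL-4, 13 were higher for IL-4+IL-10 against IL-4+IL-6, 3 lower for IL-4+IL-10 against IL-10 and 0 for the interaction with IL-10.

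The pairing moved mainly the small counts. With the replicate block on all arrays, which matched numbers across the 2 sets, 6 genes were higher with IL-4 and 5 lower in the interaction with IL-10. For IL-10 against IL-6 it gave 1 lower and 1 higher. On the first-set arrays with the block, 7 were higher and 4 lower with IL-4, and the IL-10 and IL-4+IL-10 arrays with the block gave 20 lower for IL-4+IL-10 against IL-10. The block changed no other count by over 1.5 times. A set term with the block as a random effect gave 6 higher with IL-4, 20 lower for IL-4+IL-10 against IL-10, 9 lower for the interaction with IL-10 and 3 higher for IL-4+IL-10 against IL-4+IL-6. The set term alone gave 2 higher there and 1 lower for the interaction with IL-10. Arrays of the same set gave 6 higher with IL-4, 18 lower with IL-10 and 3 lower for IL-4+IL-10 against IL-10.

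For IL-4+IL-10 against IL-10, averaging probe sets per gene gave 8, array weights 7, only the groups compared 2 and every probe set by itself 6 genes lower. For the interaction with IL-10, median centring, the trended robust test and only the groups compared gave 1, and no filter, the mean of probe sets, array weights and every probe set by itself gave 0. With IL-4, the mean of probe sets gave 1 lower, only the groups compared 5 higher and every probe set 1 higher. Every probe set by itself gave a median of -0.82 with IL-4+IL-6. Median centring gave 3 genes higher in unstimulated 6 to 8. The cause of these shifts was not tested.

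Leaving out each array in turn gave 20 to 37 genes lower with IL-10 (medians -0.62 to -0.30), 2 to 5 higher with IL-4, 1 to 21 lower and 0 to 1 higher for IL-4+IL-10 against IL-10, and 13 to 28 higher for IL-4+IL-10 against IL-4+IL-6. It gave 0 to 2 lower and 0 to 1 higher for IL-10 against IL-6 (medians -0.22 to 0.11), 0 to 4 lower for the interaction with IL-10 (medians -0.25 to 0.035) and 0 to 2 higher between the unstimulated sets. With the set term and without IL-10 replicate 1, the median was -0.71 with IL-10 and -0.32 for IL-10 against IL-6, with 6 genes higher with IL-4, 1 lower and 1 higher for IL-4+IL-10 against IL-10, 5 higher for IL-4+IL-10 against IL-4+IL-6 and 0 for the interaction with IL-10. Arrays of the same set without it gave a median of -0.71 with IL-10, and 0 lower and 1 higher for IL-4+IL-10 against IL-10.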
